A study of Mus musculus with 56 samples.

Results

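ERVK elements are class II endogenous retroviruses, betaretrovirus-like insertions that entered the mouse germ line and multiplied. The deposited table of sorted reprogramming cells lists 819 repeat types beside 13451 genes, and 211 of these repeat types carry the family name ERVK. The 204 types described here are all of those except MMETn-int, ETnERV-int, ETnERV3-int, RLTR13G, IAPEz-int, IAPLTR1_Mm and IAPEY4_I-int. They were chosen by family name apart from those exceptions, with earlier results of these data known. All 204 passed the filter on low scores. By name, 166 were long terminal repeats (LTRs) and 38 were internal parts, whose names end in int.

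An LTR carries the promoter and enhancer of the virus, and the internal part holds its gag, pro and pol genes. Recombination between the LTRs of 1 insertion removes the internal part, so many LTRs in the genome stand alone. In mouse embryonic stem cells ERVK insertions are repressed by zinc finger proteins that recruit TRIM28 and the histone methyltransferase SETDB1, and by DNA methylation, while some LTRs act as enhancers bound by pluripotency factors. Each row of the table sums reads over every copy of a type, so a value does not say which insertion was transcribed.

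All the sorted cells came from mouse OG2 embryonic fibroblasts, which turn on GFP from an Oct4 reporter when pluripotency is reached. Every group carried the retroviral reverse transactivator rtTA and TetOn lentiviral Oct4, Sox2, Klf4 and Myc (OSKM), which doxycycline turns on, and was kept in embryonic stem cell medium with vitamin C. Retroviral shRNA against luciferase (shLuci, the control) or against Ctcf (shCTCF) defined the other factor. CTCF is a zinc finger protein that binds DNA at insulators and loop anchors. Libraries were made from D0 cells, from cells sorted at D3, D6 and D9 as Thy1+ (the fibroblast surface marker kept), SSEA1+ (an early pluripotency-linked surface marker gained) or SSEA1-Thy1- (neither), and from D12 GFP+ cells. This gave 11 populations with each shRNA, 22 groups and 44 libraries, 2 in each group. Nothing in the labels says whether the 2 libraries of a group came from separate cultures, so p-values measure only the spread between libraries, which may be technical.

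Values are scores, the authors' normalized tag counts rounded to whole numbers. Library totals lay between 31777102 and 31798964 and every library had a median of 500, so sequencing depth cannot be read from them. Fold changes are differences of log2(score + 1) between group means of 2 libraries, and a type is called where the adjusted p is under 0.05 in limma's moderated test over all 14270 rows. Scores are not divided by length, so levels are compared between libraries for 1 type and never between types. In sorted bulk cells, fewer cells of a kind and less RNA per cell cannot be told apart.

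At D0 and D12 the labels matched their markers. Summed scores of 8 pluripotency genes were 265 to 281 in the D0_shLuci libraries, 11840 to 12158 in D9_shLuci_SSEA1+ and 46287 to 47038 in D12_shLuci_GFP+. In the same groups 7 fibroblast genes summed to 94228 to 101444, 34595 to 35164 and 13249 to 14070. The SSEA1+ cells did not follow a steady course. Their pluripotency sum was already 13549 to 15116 in D3_shLuci_SSEA1+, with 1 of the 8 genes at 0, and their fibroblast sum was 3085 to 3389 in D6_shLuci_SSEA1+. The 8 genes include Pou5f1, the gene of Oct4, which these cells also carried as an added factor. Its part in the sums was not separated. Of 10 macrophage genes 8 were listed, and their summed score was 4724 to 5322 at D0, 648 to 685 in D12_shLuci_GFP+ and 267 to 897 in the other sorted populations with control shRNA, and 6289 to 7278 in D0_shCTCF. Their part in the results against D0 was not tested. Ctcf scored 790 and 830 in D0_shLuci against 520 and 616 in D0_shCTCF, and 2381 and 2441 in D12_shLuci_GFP+ against 698 and 674 in D12_shCTCF_GFP+. The shRNA effect on Ctcf was called lower in all 11 populations, from -0.52 at D0 to -1.81 at D12, on the log2 scale.

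Repeat rows moved together within some pairs of libraries. The median over the 204 ERVK types, each taken against its own median over 44 libraries, was -0.21 and -0.49 in the 2 D3_shLuci_Thy1+ libraries, 0.31 and 0.08 in D6_shLuci_SSEA1+, and -0.19 and -0.42 in D0_shLuci. The 608 repeat types outside ERVK moved alongside in these pairs. Comparisons with control shRNA are therefore given also after centring each library on those 608 types. In D12_shLuci_GFP+ cells the ERVK medians were 0.40 and 0.39 while the other repeat types were at -0.03 and -0.08.

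**Figure D1:**
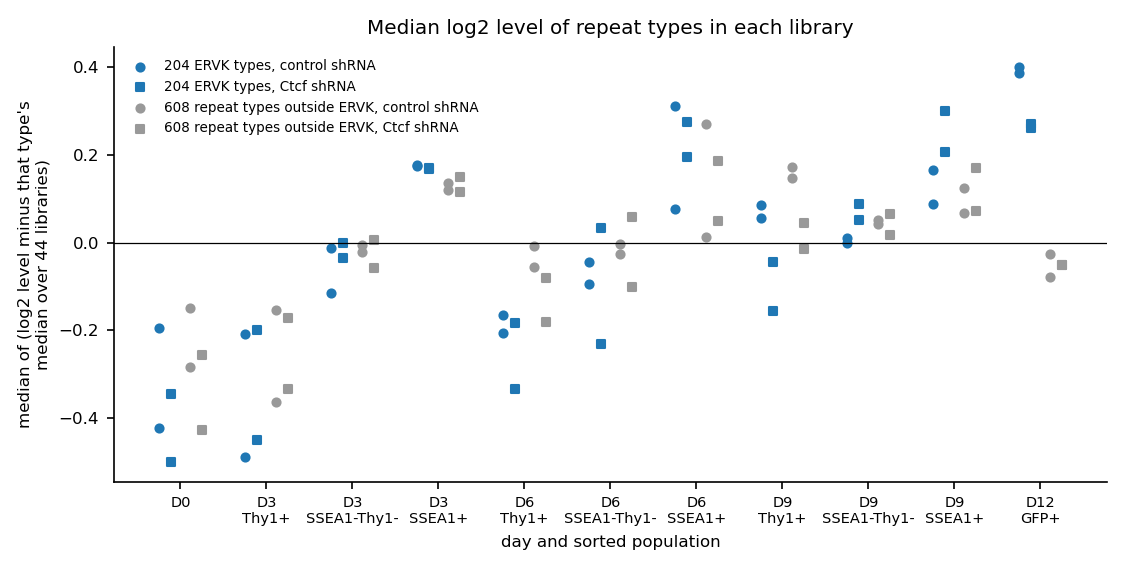
Median log2 level of the 204 ERVK types (blue) and of 608 repeat types outside ERVK (grey) in each of 44 libraries, each type taken against its own median, for control shRNA (circles) and Ctcf shRNA (squares). The D12 control libraries lie at 0.40 and 0.39 for ERVK and at -0.03 and -0.08 for the others, and the pair of D3 Thy1+ control libraries differs by more than most pairs.

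Most ERVK types scored higher in D12 GFP+ cells than in D0 cells with control shRNA. Of the 204 types 131 were called higher and 14 lower, with a median log2 fold change of 0.68. Among all rows 79.1% were called, 40.3% higher and 38.8% lower, with a median of 0.03. Among the repeat types outside ERVK, 236 of 608 were higher and 121 lower, with a median of 0.25. After centring, the ERVK types were 126 higher and 18 lower with a median of 0.60. The rise was at least 2-fold for 77 ERVK types (37.7%, against 22.5% of all rows) and at least 4-fold for 19 (9.31%, against 10.5%). A fall of at least 2-fold was found for 7 types and of at least 4-fold for 4. Falls of this size were not counted over all rows. The summed score of all 204 types went from 1.21% of the library total at D0 to 2.06% in D12_shLuci_GFP+. High-scoring types such as RLTR19-int, MMERVK9C_I-int and RMER16-int weigh most in this sum, so it does not measure how widely types rose. Called rises were found in 106 of 166 LTR types and 25 of 38 internal parts, and called falls in 10 and 4.

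3 LTR types rose at least 32-fold (1.47%, against 3.46% of all rows). ERVB4_1C-LTR_Mm scored 70 and 64 in D0_shLuci and 7350 and 7446 in D12_shLuci_GFP+, a log2 fold change of 6.77 (SE 0.13, adjusted p = 2.07e-24). ERVB7_1-LTR_MM scored 62 and 56 at D0 and 2905 and 2548 at D12, a change of 5.51 (SE 0.14). RLTRETN_Mm, the LTR of the early transposon ETn, scored 70 and 54 at D0 and 2514 and 2294 at D12, a change of 5.26 (SE 0.16, adjusted p = 7.28e-21). None of the D12 libraries came near the D0 range for these types. Related types can share reads, and how the authors assigned reads among them is not given in the sources used here, so the 3 rows may not be independent of each other. The ETn internal part ETnERV2-int scored 3290 and 2822 at D0 and 13624 and 12947 at D12, a rise of 2.12 (SE 0.12, adjusted p = 8.00e-15).

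RLTR9 types are known in mouse embryonic stem cells as LTRs that bind pluripotency factors. RLTR9E scored 80 and 73 at D0 and 1020 and 990 at D12, a rise of 3.70 (SE 0.13, adjusted p = 4.58e-19). RLTR9D rose by 1.59, and RLTR9A had a log2 fold change of 0.41 that missed the threshold (adjusted p = 0.088). Other large rises were RLTR16B_MM (77 and 64 to 590 and 644, log2 fold change 3.12, SE 0.26), ERVB4_2-I_MM-int (54 and 34 to 380 and 382, 3.12, SE 0.30) and MMERVK9C_I-int (7306 and 6924 to 58738 and 59058, 3.05, SE 0.21). For each of these 3 types every D12 library lay far above both D0 libraries.

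IAP elements encode intracisternal A particles and include copies that still move in laboratory mice. Of 13 IAP types 11 rose and 1 fell, with a median log2 fold change of 1.25. IAPA_MM-int scored 32 and 26 at D0 and 347 and 355 at D12, a rise of 3.56 (SE 0.24, adjusted p = 2.08e-13). IAPEy-int went from 50 and 64 to 415 and 410, a rise of 2.84, and IAPEY3-int from 136 and 108 to 420 and 402, a rise of 1.75. The type with the highest mean score in the group, IAP1-MM_I-int, went from 257 and 334 to 1088 and 1026, a rise of 1.85 (SE 0.22). IAPEY4_LTR moved the other way, from 230 and 237 to 32 and 39, a log2 fold change of -2.69 (SE 0.27, adjusted p = 7.57e-10).

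MMERVK10C, a provirus group repressed by TRIM28 and SETDB1 in embryonic stem cells, belongs to a set of 9 MMERVK10 and RLTR10 types, of which 7 rose and 1 fell. MMERVK10C-int scored 2806 and 2674 at D0 and 7472 and 7126 at D12, a rise of 1.41 (SE 0.10). Of 12 MMERVK9, RLTR12 and RLTR27 types 9 rose and none fell. RMER was the largest set, with 28 of 41 types higher and 1 lower. RMER4A, the member with the highest mean score, went from 13435 and 10683 to 19491 and 18672, a rise of 0.67 (SE 0.12). RMER16-int rose further, from 4558 and 4485 to 30600 and 32693, by 2.81 (SE 0.10).

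In the remaining sets, 7 of 13 ERVB types rose and 2 fell, 10 of 20 RLTR13 types rose and 1 fell, 9 of 15 MLTR types rose and 2 fell, 3 of 5 BGLII types and 2 of 3 MYSERV types rose, 2 of 4 RLTR17 types rose and 1 fell, and 38 of 63 types outside these sets rose and 5 fell. ERVB2_1A-I_MM-int went from 1328 and 1423 to 3924 and 3848, a rise of 1.50 (SE 0.20). MYSERV6-int went from 13336 and 12858 to 31236 and 28837, a rise of 1.20 (SE 0.09). RLTR19-int went from 72992 and 71392 to 148336 and 124594, a rise of 0.91 (SE 0.16). These 3 internal parts had no overlap between D0 and D12 libraries.

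Smaller changes rested more on single libraries. MMTV-int, the internal part of the mouse mammary tumour virus, went from 806 and 698 to 1510 and 1060 (0.75, SE 0.27, adjusted p = 0.012), but without the D12 library at 1510 the adjusted p was 0.162. RLTR13D3A1 went from 4232 and 3901 to 5459 and 5640 (0.45, adjusted p = 0.0316) and missed the threshold without any 1 of the 4 libraries. RLTR17B_Mm was 50190 and 42588 at D0 and 37647 and 39577 at D12 (-0.26, adjusted p = 0.0193), with an adjusted p of 0.276 without the D0 library at 50190. BGLII_B2 went from 626 and 478 to 689 and 894 (0.52, adjusted p = 0.00196), with 0.0810 without the D0 library at 478.

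A few types fell strongly. ERVB4_3-I_MM-int scored 488 and 501 at D0 and 44 and 48 at D12, a log2 fold change of -3.40 (SE 0.32, adjusted p = 1.96e-10), although its namesakes ERVB4_1C-LTR_Mm and ERVB4_2-I_MM-int rose. RLTR26 went from 252 and 247 to 32 and 30 (-2.97, SE 0.23) and MLTR18_MM from 617 and 504 to 116 and 112 (-2.28, SE 0.22). RNERVK23-int (1278 and 1262 to 374 and 481, -1.58), RLTR13D3 (1196 and 1023 to 388 and 429, -1.44), RLTR34D_MM (83 and 83 to 39 and 31, -1.23) and MLTR18B_MM (4922 and 4898 to 2402 and 2798, -0.92) fell less. RLTR13D5, known as an enhancer in trophoblast stem cells, scored 412 and 384 at D0 and 416 and 355 at D12 (-0.05, adjusted p = 0.775).

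**Figure D2:**
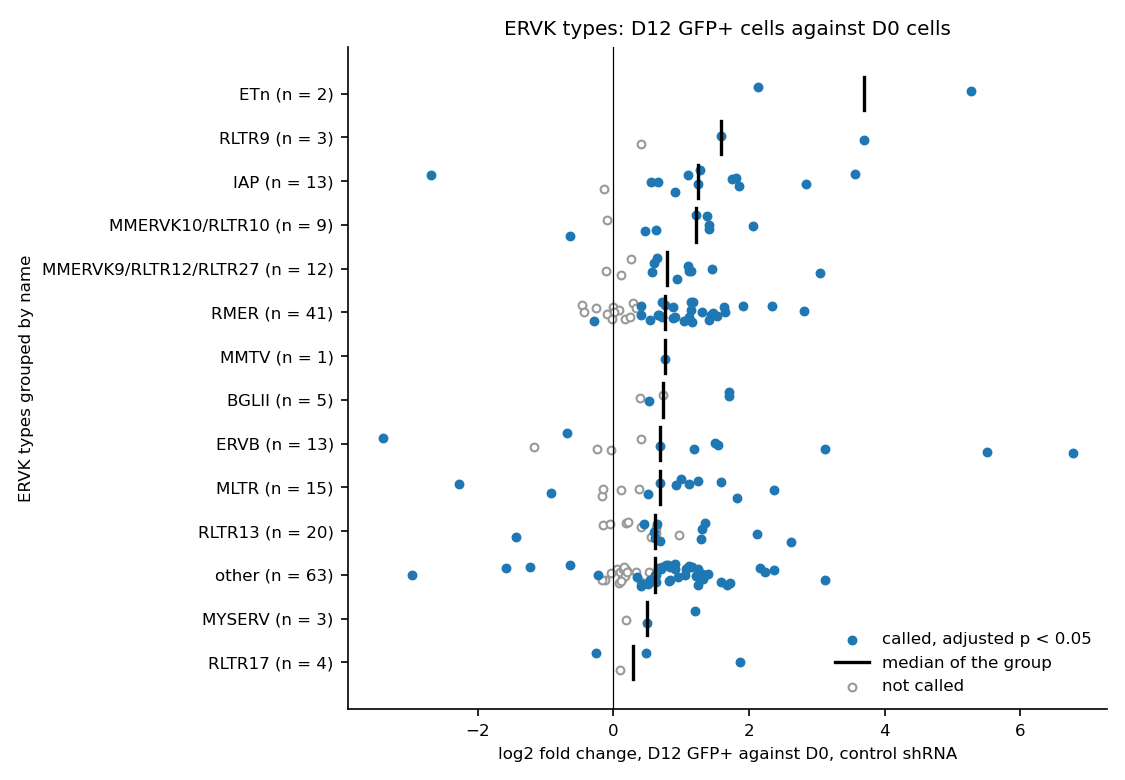
Log2 fold change of each ERVK type between D12 GFP+ and D0 cells with control shRNA, grouped by name, with filled points for adjusted p under 0.05, open points for the others and a bar at each group's median. The 3 types beyond 5 on the axis are ERVB4_1C-LTR_Mm, ERVB7_1-LTR_MM and RLTRETN_Mm, and the lowest is ERVB4_3-I_MM-int at -3.40.

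Transcripts of most genes listed for silencing or restriction also rose between D0 and D12. The list held 36 genes, among them genes of DNA methylation and of its removal. Of these 32 were called higher and 1 lower, where 40.3% of all rows were higher, with a median log2 fold change of 1.41. Dnmt3l and Dnmt3b, which act in setting DNA methylation, rose by 9.56 and 7.85. Tet1 and Tet2, which oxidize methylated cytosine, rose by 7.60 and 4.18. Rif1 rose by 3.37, and Apobec3, which restricts retroviruses, by 2.81. Trim28 rose by 2.50 and Setdb1 by 1.42. Pphln1, a subunit of the HUSH repressor, fell by 0.40.

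The sorted populations place these changes along the route. With control shRNA 97 of the 204 types (47.5%) had their highest group mean in D12 GFP+ cells, against 22.4% of all rows and 20.1% of the repeat types outside ERVK. A further 31 peaked in D3 SSEA1+ cells (15.2%, against 14.6% of all rows), 23 in D6 SSEA1+ cells (11.3%, against 15.7%), 22 in D9 Thy1+ cells (10.8%, against 9.99%) and 15 in D0 cells (7.35%, against 18.9%).

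By D3 the SSEA1+ and Thy1+ cells already differed. D3_shLuci_SSEA1+ cells had 117 ERVK types higher and 19 lower than D0 (71.4% of all rows called, 40.2% higher and 31.2% lower), with a median log2 fold change of 0.55, and 80 higher and 31 lower after centring on the other repeat types. D3_shLuci_Thy1+ cells had 14 higher and 28 lower than D0 (40.5% of all rows called, 21.3% higher and 19.2% lower), with a median of -0.04, and 17 and 16 after centring. Both comparisons share the D0 libraries. Between the 2 populations themselves, 126 types were higher in SSEA1+ cells and 11 lower (63.5% of all rows called, 36.1% higher and 27.4% lower), with a median of 0.57. That count rested on the repeat shift described above: it was 47 higher and 24 lower after centring, and 79 in all without the second D3_shLuci_Thy1+ library.

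At D6, 97 types were higher in SSEA1+ than in Thy1+ cells and 14 lower (74% of all rows called, 41.8% higher and 32.2% lower), with a median of 0.40. Centring gave 63 and 20, and leaving out the first D6_shLuci_SSEA1+ library gave 68 calls. At D9 it was 36 higher and 26 lower (65.9% of all rows called, 37% higher and 29% lower) with a median of 0.04, and 61 and 14 after centring. Over the same days the Thy1+ cells changed: D9 against D3 Thy1+ cells had 95 types higher and 7 lower (55.7% of all rows called, 25.7% higher and 30% lower). The count was 21 higher and 46 lower after centring, so its direction depended on the scaling, and it was 52 in all without the second D3_shLuci_Thy1+ library.

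Some types separated SSEA1+ from Thy1+ cells on every day. Of the 204 types 26 were called higher at D3, D6 and D9 (12.7%, against 25.5% of all rows) and 6 lower (2.94%, against 19.8%). ERVB4_1C-LTR_Mm scored 101 and 96 in Thy1+ cells and 408 and 364 in SSEA1+ cells at D3. At D6 it scored 124 and 121 against 1420 and 1286, and at D9 431 and 414 against 2038 and 2414. These are log2 differences of 1.96, 3.45 and 2.39. ERVB7_1-LTR_MM differed by 1.99, 3.44 and 2.38 and RLTRETN_Mm by 1.44, 2.49 and 2.09. All 3 RLTR9 types were higher in SSEA1+ cells on each day. The 6 types lower in SSEA1+ cells on all 3 days were ERVB4_3-I_MM-int, IAPEY4_LTR, MLTR18_MM, RLTR13D3, RLTR26 and RNERVK23-int, which are also types that fell between D0 and D12. The D3 call of IAPEY4_LTR did not hold without each library (adjusted p up to 0.0987).

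The named types also differed in size from day to day, and several of them were called on all 3 days. At D3 the next largest differences were RMER16A3 (1.93), RLTR20A2B_MM (1.58), MLTR18A_MM (1.54), RMER3D-int (1.46) and RLTR10B (1.43) on the higher side, and ERVB4_3-I_MM-int (-1.24), RLTR13D3 (-1.24), MLTR18_MM (-1.10) and RLTR44-int (-0.84) on the lower side. At D6 RLTR10B (1.72), RLTR13F (1.66), RMER16C (1.65), RMER16A3 (1.58) and RLTR9A (1.34) were higher, and IAPEY4_LTR (-1.21), RLTR13D5 (-1.03) and RLTR12BD_Mm (-1.01) lower. At D9 IAPA_MM-int (1.44), RMER16-int (1.13) and RLTR9E (1.03) were higher, and IAPLTR3-int (-1.10) and RMER17A-int (-1.08) lower. The D6 call for RLTR13F was lost when a single library was left out. The SSEA1-Thy1- cells mostly lay between their neighbours, as they did over all called rows. At D3 their group mean was between those of SSEA1+ and Thy1+ cells for 133 of 137 called types. At D6 it was between them for 101 of 111, and at D9 for 54 of 62. These shares were 97.1%, 91.0% and 87.1%, near the 91.7%, 89.5% and 90.8% of all called rows.

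Within the SSEA1+ cells few types were called at either step between D3 and D9. D9 was not tested against D3 directly. Between D3 and D6 13 rose and 9 fell (46.1% of all rows called, 22.6% higher and 23.6% lower), and between D6 and D9 12 rose and 14 fell (47.5% of all rows called, 21.7% higher and 25.9% lower). After centring, the splits were 11 and 11, and 18 higher and 8 lower. The step from D9 SSEA1+ to D12 GFP+ cells was larger, with 78 types higher and 13 lower (57.6% of all rows called, 25.1% higher and 32.5% lower), a median log2 fold change of 0.28, and 95 and 7 after centring. Of the repeat types outside ERVK, 76 of 608 rose in that step and 133 fell, with a median of -0.11.

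IAP types took part in the last step, with 10 of 13 higher and none lower, at a median of 0.88. IAPEy-int was low until then: 50 and 64 at D0, 29 and 37 in D9_shLuci_SSEA1+ and 415 and 410 in D12_shLuci_GFP+, a last step of 3.61 (adjusted p = 7.42e-09). IAPEY_LTR went from 37 and 42 at D0 through 21 and 24 to 137 and 143, a last step of 2.59. For both types the 2 D12 libraries stood above every D0 and D9 SSEA1+ library with control shRNA. IAP-d-int went from 264 and 216 at D0 through 200 and 203 to 608 and 547, a last step of 1.51. IAPA_MM-int was already at 94 and 119 in D9 SSEA1+ cells and rose by 1.72 from there.

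The share of the total log2 rise reached by D9 SSEA1+ cells differed among types. It was 74.4% for ERVB4_1C-LTR_Mm, 68.4% for ERVB7_1-LTR_MM, 68.3% for RMER16-int, 61.7% for RLTRETN_Mm and 51.8% for IAPA_MM-int, and 34.8% for RLTR9E, 21.8% for RLTR45-int and 19.8% for RLTR16B_MM. RMER16-int rose at each step, from 8280 and 7436 in D3_shLuci_SSEA1+ to 12947 and 11026 at D6 and 17566 and 16589 at D9. RLTR16B_MM scored 103 and 114 in D9_shLuci_SSEA1+ and 590 and 644 at D12, a last step of 2.50. RLTR45-int went from 1425 and 1157 at D0 through 1800 and 1886 to 6440 and 6774, a last step of 1.84. Of the MMERVK10 and RLTR10 types 8 of 9 rose in the last step, and both RLTR9E (2.41) and RLTR9D (1.48) did.

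RMER3D-int followed another course. It scored 5328 and 5164 at D0, 35573 and 36464 in D3_shLuci_SSEA1+, 11044 and 10258 at D6, 8828 and 9336 at D9 and 5582 and 4758 in D12_shLuci_GFP+. The rise by D3 was 2.78 (SE 0.13, adjusted p = 3.58e-16) and the fall from D3 to D6 was -1.76 (adjusted p = 3.20e-11), and D12 differed from D0 by -0.03 (adjusted p = 0.868). It had risen less in the other D3 cells, to 13130 and 13006 in Thy1+ and 18078 and 17612 in SSEA1-Thy1- cells. BGLII scored 279 and 190 at D0, 952 and 826 in D3_shLuci_SSEA1+ and 490 and 476 at D6, a rise of 1.94 and then a fall of -0.88, and stood at 776 and 732 at D12. MurERV4-int had group means of 26175 at D0, 57753 in D3_shLuci_SSEA1+ and 27164 at D12.

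**Figure D3:**
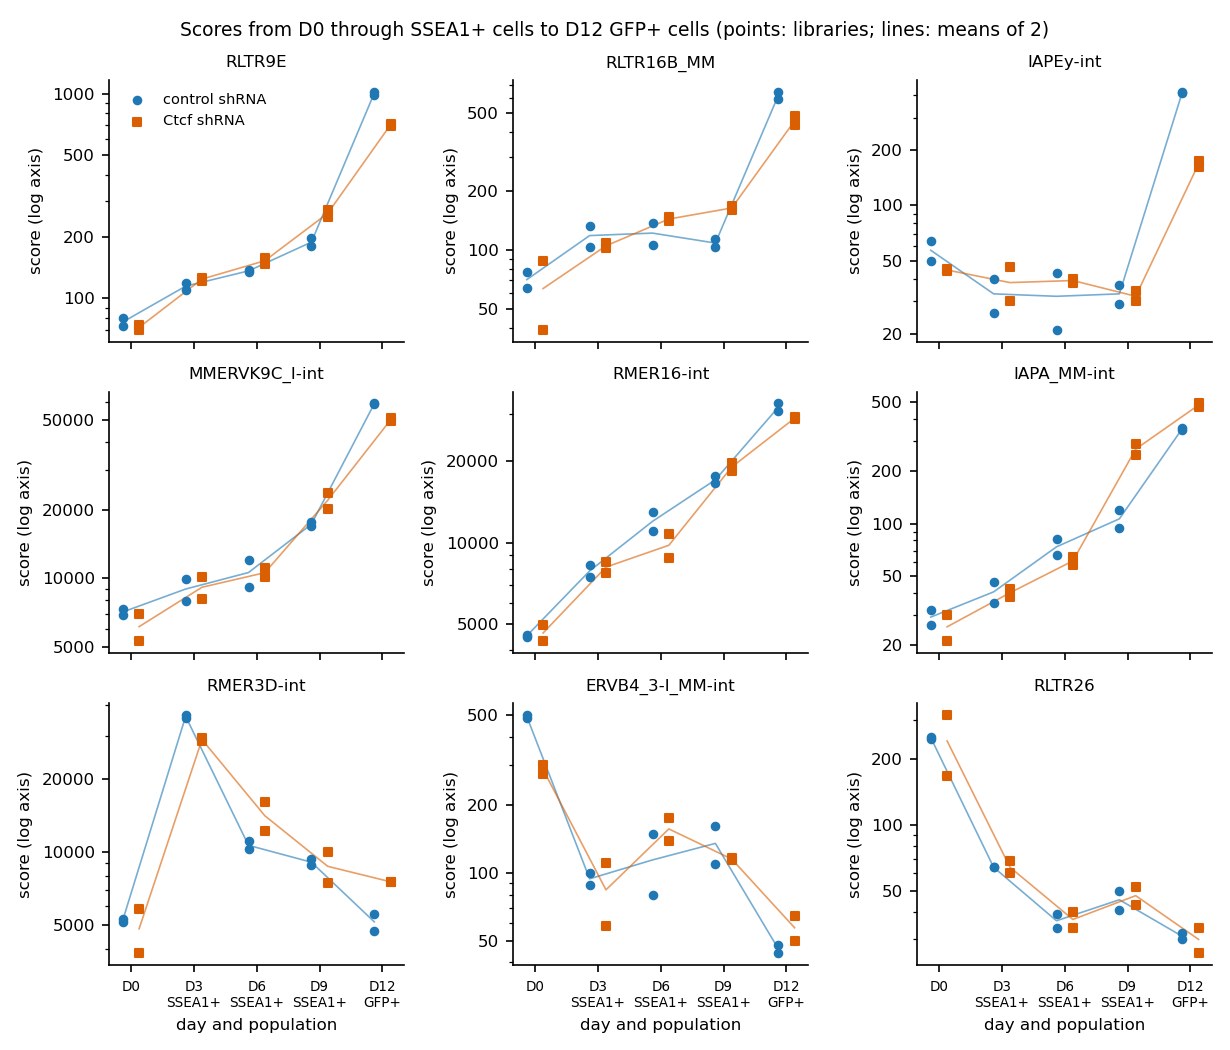
Scores of 9 ERVK types (log axes) from D0 through SSEA1+ cells at D3, D6 and D9 to D12 GFP+ cells, for control shRNA (blue) and Ctcf shRNA (orange), with points for libraries and lines for means of 2. IAPEy-int stays at or below its D0 level in the control SSEA1+ libraries and reaches 415 and 410 at D12, while RMER3D-int peaks at D3 and ERVB4_3-I_MM-int and RLTR26 fall.

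Ctcf shRNA changed a minority of ERVK types, in both directions. Averaged over the 11 populations, 16 types were called higher and 21 lower with a median of -0.02, where 49.5% of all rows were called, 24.9% higher and 24.6% lower. After centring on the other repeat types the split was 23 higher and 12 lower. Over single populations 65 types were called at least once, with 41 higher and 72 lower calls. The same tally was not made over all rows, of which 46.5% were called in D12 GFP+ cells alone. At D0 there were 5 calls (6.19% of all rows called). At D3 there was 1 call in Thy1+ cells (3.66%), 4 in SSEA1+ cells (6.27%) and 3 in SSEA1-Thy1- cells (4.55%). At D6 there were 5 in Thy1+ (13.4%), 13 in SSEA1+ (20.5%) and 16 in SSEA1-Thy1- cells (39.5%). At D9 there were 14 in Thy1+ (18.4%), 11 in SSEA1+ (12.9%) and 12 in SSEA1-Thy1- cells (26.1%). In D12 GFP+ cells 7 were higher and 22 lower (46.5%, with 23.3% higher and 23.1% lower), with a median of -0.14 against -0.06 over all rows. The share of ERVK types called was below the share of all rows called in all 11 populations. Libraries of 1 group also differed more for ERVK types than for genes in several groups, for example by a median of 0.25 against 0.11 on the log2 scale in D0_shLuci.

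In the average over populations, the called LTR types were mostly lower (7 higher, 20 lower of 166) and the called internal parts mostly higher (9 higher, 1 lower of 38). Over all rows 24.9% were higher and 24.6% lower, shares that neither of these 2 sets exceeded. After centring on the other repeat types the LTR types were 12 higher and 12 lower and the internal parts 11 higher and none lower, and in the fit of repeat rows alone 3 and 10, and 6 and none. Of the IAP types 5 were higher and none lower, of the MMERVK10 and RLTR10 types 3 were higher and none lower, and of the ERVB types none was higher and 4 were lower (after centring 6, 3 and 2, in the same directions). The genes listed for silencing or restriction moved with Ctcf shRNA too: 26 of 36 were lower and 1 higher, with a median of -0.14. The higher one was Zfp809, a zinc finger protein that directs TRIM28 to retroviral sequence. The part of these 36 genes in the ERVK changes was not tested.

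The 3 LTR types with the largest rise from D0 to D12 were lowered by Ctcf shRNA, in comparisons that share the control libraries. ERVB4_1C-LTR_Mm was lower with shCTCF in 10 of 11 populations and called in 9, with a mean effect of -0.83 (SE 0.04, adjusted p = 3.76e-15). In D6 SSEA1-Thy1- cells it scored 649 and 588 with control shRNA and 177 and 172 with Ctcf shRNA, an effect of -1.82 (adjusted p = 6.72e-11). In D9 Thy1+ cells it scored 431 and 414 against 158 and 122 (-1.60, adjusted p = 1.60e-09, and 0.0517 when only these groups were fitted), and in D12 GFP+ cells 7350 and 7446 against 4388 and 4309 (-0.77, adjusted p = 4.03e-05). In D9 SSEA1+ cells the values were 2038 and 2414 against 1714 and 1822 (-0.33, adjusted p = 0.118), and at D0 70 and 64 against 70 and 77 (0.13). The effect differed among populations (F test over 11 populations, adjusted p = 1.28e-07), between D12 and D0 by -0.90 (adjusted p = 0.000537) and between SSEA1+ and Thy1+ cells at D9 by 1.27 (adjusted p = 2.81e-05). The call in D3 Thy1+ cells (-0.49, adjusted p = 0.0362) was lost in 3 of 4 fits that left out a library, with an adjusted p of up to 0.382 without the first D3_shCTCF_Thy1+ library.

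ERVB7_1-LTR_MM was lower with Ctcf shRNA in 11 of 11 populations and called in 8, with a mean effect of -0.75. In D6 SSEA1-Thy1- cells it scored 278 and 322 against 80 and 106 (-1.69, adjusted p = 6.17e-10), and at D12 2905 and 2548 against 1417 and 1436 (-0.93, adjusted p = 5.73e-06). RLTRETN_Mm had a mean effect of -0.39 (SE 0.05, adjusted p = 1.36e-07) and was called lower in 5 populations, 1 of which, D9 Thy1+ (-0.57), reached an adjusted p of 0.330 without the second D9_shCTCF_Thy1+ library. RLTRETN_Mm scored 169 and 172 against 70 and 89 in D6 SSEA1-Thy1- cells (-1.10, adjusted p = 3.97e-06) and 2514 and 2294 against 1313 and 1247 at D12 (-0.91, adjusted p = 4.06e-05). In D9 SSEA1+ cells RLTRETN_Mm was at 560 and 628 against 524 and 550 (-0.14, adjusted p = 0.669). The F test gave adjusted p = 5.16e-06 for ERVB7_1-LTR_MM and 0.000458 for RLTRETN_Mm.

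Cell type markers moved in the same populations. In D6 SSEA1-Thy1- cells the fibroblast genes summed to 27493 to 28140 with control shRNA and 60243 to 60855 with Ctcf shRNA, and the pluripotency genes to 9686 to 10356 and 6720 to 7064. In D12 GFP+ cells the fibroblast sum was 13249 to 14070 against 38729 to 39136, and the pluripotency sum 46287 to 47038 against 27175 to 27342. In D9 Thy1+ cells the fibroblast sum was 282912 to 296795 against 252311 to 291786, and the pluripotency sum 3065 to 3300 against 944 to 1103. In D9 SSEA1+ cells the order was the reverse of that in D6 SSEA1-Thy1- and D12 GFP+ cells. The fibroblast sum there was 34595 to 35164 against 12512 to 14129, and the pluripotency sum 11840 to 12158 against 13067 to 13309. The 4 listed early epithelial genes went both ways. With Ctcf shRNA they were lower in D6 SSEA1-Thy1- (3049 to 3166 against 1942 to 2004) and D9 Thy1+ cells (3389 to 3714 against 1210 to 1232). They were higher in D9 SSEA1+ (24762 to 25438 against 26482 to 29222) and D12 GFP+ cells (13850 to 14027 against 22866 to 22983). None of these marker genes was at 0 in these groups, and their part in the ERVK changes was not tested.

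**Figure D4:**
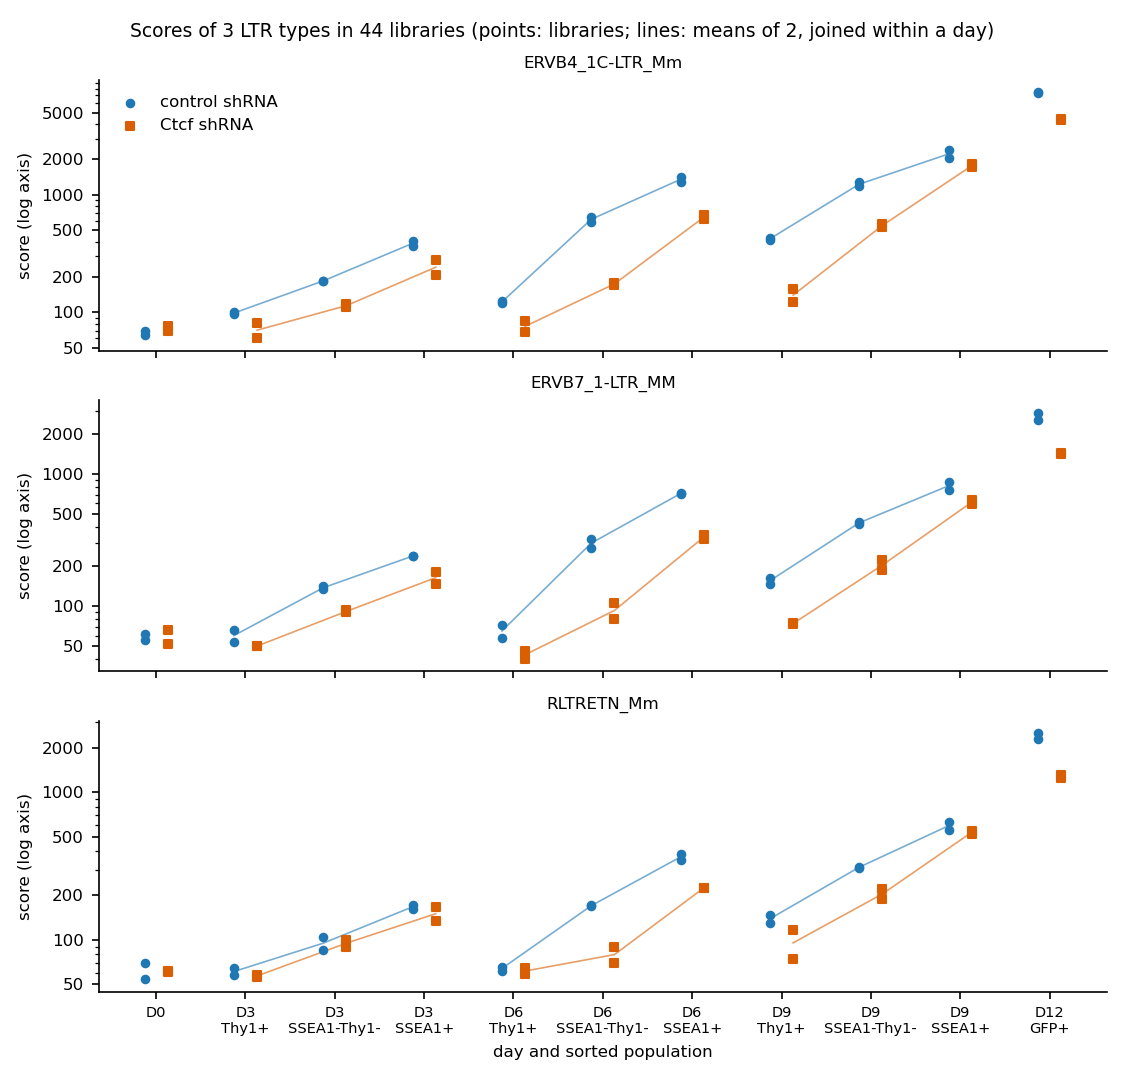
Scores (log axes) of ERVB4_1C-LTR_Mm, ERVB7_1-LTR_MM and RLTRETN_Mm in 44 libraries, with control shRNA in blue and Ctcf shRNA in orange, points for libraries and lines joining means of 2 within a day. Within each of D3, D6 and D9 the scores climb from Thy1+ to SSEA1+ cells with either shRNA, and the widest gap between shRNAs is in the D6 SSEA1-Thy1- cells for all 3 types.

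In D9 SSEA1+ cells 11 ERVK types were higher with Ctcf shRNA and none lower (12.9% of all rows were called, 4.49% higher and 8.4% lower), a share of higher calls near that of all rows. Of 13 IAP types 4 were among them, and the largest 2 effects were of IAP types. IAPLTR1a_Mm scored 180 and 186 with control shRNA and 459 and 451 with Ctcf shRNA, an effect of 1.31 (SE 0.14, adjusted p = 1.67e-07). IAPA_MM-int scored 94 and 119 against 248 and 288 (1.33, SE 0.24, adjusted p = 0.000257), and IAP-d-int 200 and 203 against 360 and 318 (0.74, adjusted p = 0.000632). The libraries of the 2 groups did not overlap for these 3 types, and the calls held without each library in turn, but all 3 were lost when only these 2 groups were fitted, where no ERVK type was called. The other 8 calls, among them RLTR9E (180 and 196 against 270 and 250) and RLTR9D (84 and 96 against 138 and 132), were lost in at least 1 of the 4 fits that left out a library, with an adjusted p of up to 0.303, reached by MMERVK10D3_I-int without the second D9_shCTCF_SSEA1+ library.

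The Ctcf shRNA effect differed between D9 SSEA1+ and D9 Thy1+ cells for 20 types, in 19 of them upward (18.3% of all rows called, 9.73% upward and 8.62% downward), with a median difference of 0.30 against 0.01 over all rows. After centring on the other repeat types 6 were left, 5 of them upward. The difference was 1.29 for IAPLTR1a_Mm (adjusted p = 4.36e-05) and 1.52 for IAPA_MM-int (adjusted p = 0.00192). In D9 Thy1+ cells the 14 calls were 13 lower and 1 higher (18.4% of all rows called, 11.5% lower and 6.87% higher). The higher one was IAPEY4_LTR, at 82 and 70 against 188 and 156 (1.17, adjusted p = 0.00256). RMER16B3 was among the lower calls at -3.47, but its second D9_shCTCF_Thy1+ library had a score of 1, and without it the effect was -0.90 (adjusted p = 0.551).

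In D12 GFP+ cells the IAP types split. IAPLTR1a_Mm stayed higher with Ctcf shRNA, at 335 and 330 against 513 and 536 (0.66, adjusted p = 0.000431). IAPA_MM-int scored 347 and 355 against 470 and 490 (0.45, adjusted p = 0.122) and IAP-d-int 608 and 547 against 510 and 564 (-0.10). IAPEY_LTR and IAPEy-int, which rise late in the control, were lower: IAPEY_LTR scored 137 and 143 against 56 and 58 (-1.28, SE 0.24, adjusted p = 9.86e-05) and IAPEy-int 415 and 410 against 175 and 162 (-1.29, SE 0.37, adjusted p = 0.00643, and 0.0639 in a fit of repeat rows alone). For IAPEY_LTR the effect at D12 differed from that at D0 by -1.85 (adjusted p = 0.000121).

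RLTR9 types were also lower in D12 GFP+ cells with Ctcf shRNA. RLTR9E scored 1020 and 990 against 714 and 696 (-0.51, adjusted p = 0.00295) and RLTR9D 244 and 262 against 160 and 124 (-0.84, adjusted p = 0.000323). Both had been above their control in D9 SSEA1+ cells, but neither of those calls held without any 1 of the 4 libraries. By set, 5 ERVB types were lower at D12 and 1 higher, 3 MMERVK10 and RLTR10 types and 3 MLTR types were lower, and IAP types were 2 higher and 2 lower. Of all LTR types 19 were lower and 2 higher, and of all internal parts 3 were lower and 5 higher. Among all rows 23.1% were lower and 23.3% higher. The ERVB type that was higher, ERVB4_1-I_MM-int, scored 37 and 42 against 114 and 105 (1.45, SE 0.31, adjusted p = 0.000418). It had been lower at D0, at 70 and 58 against 32 and 30 (-1.02, adjusted p = 0.0485, lost without any 1 library), and the difference between the D12 and D0 effects was 2.47 (adjusted p = 7.92e-05). In all, 16 types differed in effect between D12 and D0, 7 upward and 9 downward (37% of all rows called, 20% upward and 16.9% downward).

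The effect of Ctcf shRNA differed among the 11 populations for 33 types (52.7% of all rows and 67 of 608 other repeat types called). After the 2 ERVB LTR types the smallest adjusted p was that of IAPLTR1a_Mm (4.17e-05), and RMER3D-int followed RLTRETN_Mm with 0.000553. RMER3D-int, the type that peaks at D3, was higher with Ctcf shRNA in D6 SSEA1+ (0.39), D9 SSEA1-Thy1- (0.44) and D12 GFP+ cells (5582 and 4758 against 7536 and 7555, 0.55, adjusted p = 0.0016).

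Types with the largest mean increase with Ctcf shRNA were RLTR13B2 (0.40, adjusted p = 0.000542), RLTR18-int (0.28), IAPLTR1a_Mm (0.26), RMER17A-int (0.26), IAPLTR3-int (0.25), IAP-d-int (0.25), IAPA_MM-int (0.20) and MurERV4_19-int (0.18). RLTR18-int and MurERV4_19-int were higher in 11 of 11 populations. IAPA_MM-int was lower in 6 of 11, and both of its calls were at D9. RLTR13B2 scored 66 and 46 against 149 and 136 in D6 SSEA1+ cells (1.35, adjusted p = 0.108 when only these groups were fitted) and 97 and 85 against 222 and 207 in D9 SSEA1+ cells (1.23). After the 3 LTR types above, the largest mean decreases were RLTR13D1 (-0.47), MLTR13 (-0.37, adjusted p = 1.46e-07), MLTR18A_MM (-0.25), RLTR9A (-0.22) and RLTR13A2 (-0.21). MLTR13 was lower in 10 of 11 populations, and in D9 SSEA1-Thy1- cells it scored 1029 and 1162 against 444 and 632 (-1.04, adjusted p = 1.62e-05). Calls in at least 3 populations were made for 9 types: ERVB4_1C-LTR_Mm, ERVB7_1-LTR_MM, RLTRETN_Mm, MLTR13, ERVB7_2-LTR_MM and RLTR10B downward, and IAP-d-int, RLTR13B2 and RMER3D-int upward. Repeated calls, and effects of the same direction in every population, were not counted over all rows. In each population a larger share of all rows than of ERVK types was called.

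**Figure D5:**
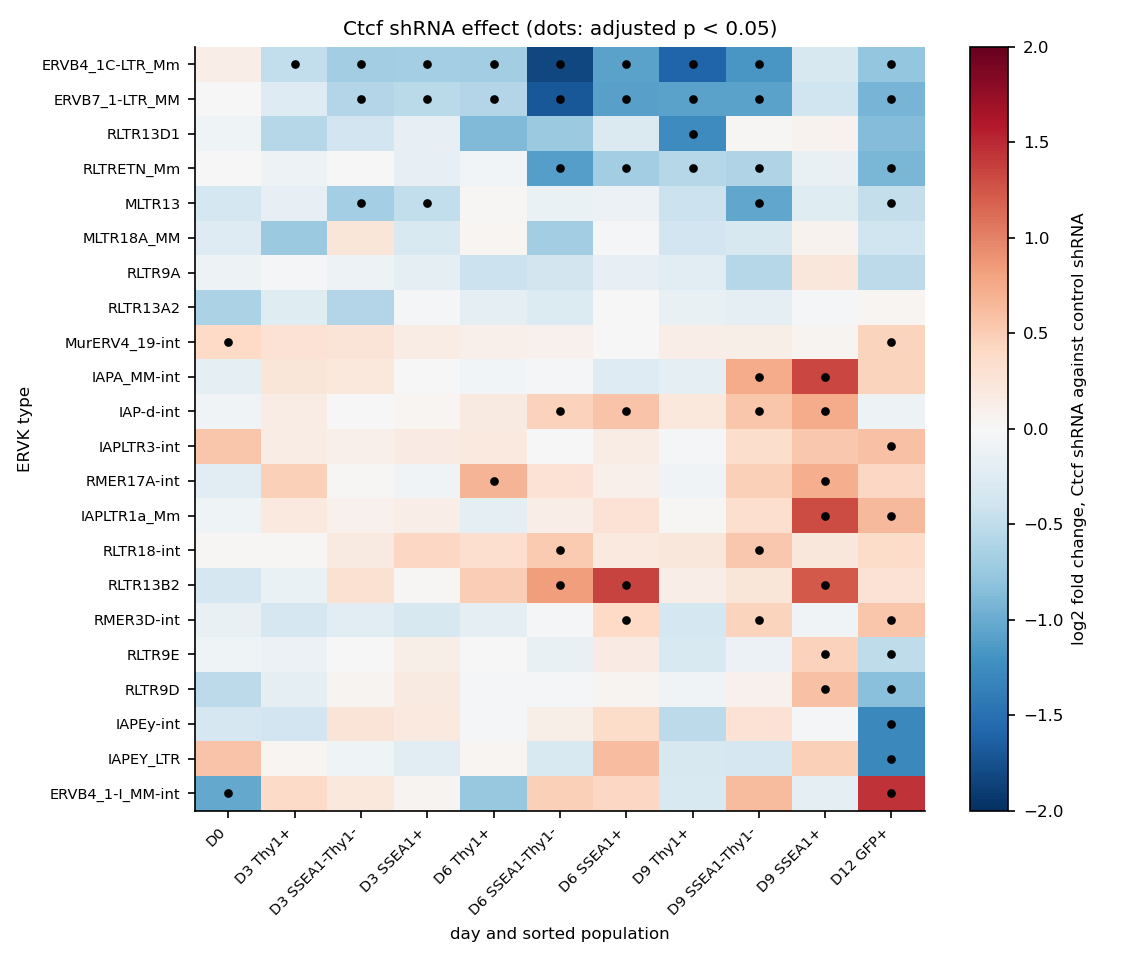
Log2 fold change with Ctcf shRNA against control shRNA for 22 ERVK types (rows) in 11 populations (columns), with dots where the adjusted p is under 0.05 and colours running from -2 (blue) to 2 (red). The lower calls of ERVB4_1C-LTR_Mm and ERVB7_1-LTR_MM run through most sorted populations, while the calls of IAPLTR1a_Mm and IAPA_MM-int lie at D9 and D12.

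A separate table, normalized apart, held reprogramming cells at D10 with control vector (D10_oecontrol), CTCF overexpression (D10_oeCTCF) or CTCF overexpression with Smarca5 shRNA (D10_oeCTCF&shSmarca5), 2 columns each. It lists 193 of the 204 types. The 2 control columns differed far less than the other pairs and were counted as 1 sample. If scores were read counts, their median squared difference would be 0.329 times that of counting error, against 9.46 and 6.88 times in the other pairs, although the depth behind the scores is unknown. Ctcf scored 1248 in the control, 5621 with overexpression and 6215 with Smarca5 shRNA added, and Smarca5 scored 11916, 13550.5 and 6518.5.

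No ERVK type was called in either D10 comparison with limma, where 0.0577% of all rows were called for overexpression and 0.0721% for the added Smarca5 shRNA, and 1 type in each had an unadjusted p under 0.05. With 2 residual degrees of freedom the fit had little power. CTCF overexpression gave 50 positive and 143 negative log2 fold changes with a median of -0.08, against -0.07 for the other repeat types and 0.01 over all rows. Smarca5 shRNA on top of overexpression, which shares the overexpression libraries, gave 144 positive and 49 negative with a median of 0.04. The 702 other repeat types of that table had 474 positive and 227 negative with a median of 0.05, so the tilt was shared. ERVB4_1C-LTR_Mm scored 975 and 1010 in the control columns, 1388 and 1134 with overexpression and 1340 and 949 with Smarca5 shRNA added. The 2 overexpression values lay above both control values, which count as 1 sample (log2 fold change 0.34, not called). The last group overlapped both others. How many rows lay apart in this way was not counted.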

How the data were processed

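Reads came from NEBNext Ultra RNA libraries of TRIzol-extracted RNA, per the labels' protocols, and the submitters' processing notes name Trim Galore, FastQC, RSEM and GRCm38 (mm10), without versions. How repeat types were counted (reads shared by related types, strand, overlap with genes) and how the table was normalized is not given in the sources used here. The values are scores, read from the deposited table as normalized tag counts rounded by the authors, with nearly the same distribution in every library. Depth is unknown.

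Scores were analysed as log2(score + 1) with limma 3.58.1 in R 4.3.3, with a trend and 1 coefficient per group over all 44 libraries (22 residual degrees of freedom). The filter asked for 10 or more in 2 or more libraries, which all 14270 rows met, and p-values were adjusted by Benjamini-Hochberg over all of them. Scripts were tested on simulated data. The Ctcf shRNA effect was tested in each population, as a mean, by an F test among populations and as 2 differences. The D10 table was fitted apart, and the table of MEF and iPSC libraries lists genes only and was not used.

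Types were named if they had the largest called changes with libraries that did not overlap and a group mean of at least 50, or the smallest F test p, or the highest mean score of their set. For the mean effect overlap was not considered. Further types were added after their values were seen. The members, lists of silencing genes and cell type markers (fibroblast, pluripotency, early epithelial, macrophage) were chosen with earlier results of these data known. The early epithelial genes (4 of 5 listed) summed to 24762 to 25438 in D9_shLuci_SSEA1+. Alternatives were other filters, pseudocount, normalization, centring, sample sets, a replicate block and leaving out each library.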

Additional observations from a re-analysis of the deposited data

Results flagged for a closer look

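The effect of Ctcf shRNA differed between populations, by a test of the difference itself, for these ERVK types. Over all 11 populations 33 of the 204 types passed the F test, where 52.7% of all rows did. The smallest adjusted p-values were 1.28e-07 for ERVB4_1C-LTR_Mm, 5.16e-06 for ERVB7_1-LTR_MM, 4.17e-05 for IAPLTR1a_Mm, 0.000458 for RLTRETN_Mm and 0.000553 for RMER3D-int. Between D12 GFP+ and D0 cells 16 types differed (37% of all rows), and between D9 SSEA1+ and D9 Thy1+ cells 20 types differed (18.3% of all rows). The difference between populations was therefore not particular to ERVK types. Groups of 2 libraries are too small for a test of 1 library against the rest of its group, and the effect of leaving out each library is given with the other alternatives.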

How the results depend on the processing

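The number of ERVK types called stayed within 1.5 times the reported count in every sorted-cell comparison under these alternatives. They were a filter at a mean score of 50, a pseudocount of 8 and quantile normalization. Centring on gene rows, no trend and a replicate block were the others. Quantile normalization could change little, since scores had nearly the same distribution in every library. All rows met the filter, so a fit with no filter repeats the reported one and tests nothing. Replicate numbers did not pair the libraries (median correlation of deviations 0.007 over 5000 variable rows, from -0.098 to 0.124, and 0.009 over the ERVK types, from -0.71 to 0.70). With the replicate block 145 types were called for D12 against D0, 34 for Ctcf shRNA at D12 and 39 for its mean effect, and none at D10 (0 in either comparison).

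Centring on repeat types outside ERVK, chosen after seeing the data, gave 71 calls between SSEA1+ and Thy1+ cells at D3 and 67 between D9 and D3 Thy1+ cells. For Ctcf shRNA it gave 3 at D0, 0 in D3 Thy1+, 2 in D3 SSEA1+, 3 in D6 Thy1+, 30 in D6 SSEA1-Thy1- (29 of them lower), 7 in D9 Thy1+ and 6 for the difference between D9 SSEA1+ and Thy1+ cells. Repeat rows fitted and adjusted apart from genes gave 23 for D3 Thy1+ against D0, 40 between SSEA1+ and Thy1+ cells at D9 and 17 between D9 and D6 SSEA1+ cells. The same fit gave, for Ctcf shRNA, 0 at D0 and in D3 Thy1+, 1 in D3 SSEA1+ and in D6 Thy1+, 4 in D6 SSEA1+, 6 in D6 SSEA1-Thy1-, 4 in D9 Thy1+, 7 in D9 SSEA1+, 5 in D9 SSEA1-Thy1-, 14 in D12 GFP+, 19 for the mean, 9 for the F test, and 5 and 7 for the D12 and D9 differences. There the mean effect of IAPA_MM-int (adjusted p = 0.129), MLTR18A_MM (0.110) and RLTR9A (0.0569) missed the threshold. With only the groups compared, D3 Thy1+ against D0 gave 17, and Ctcf shRNA gave 0 at D0, in the 3 D3 populations, in D6 Thy1+ and SSEA1+ and in D9 Thy1+ and SSEA1+ cells, 9 in D6 SSEA1-Thy1- and 75 in D12 GFP+ cells. Those fits hold 4 libraries.

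Leaving out each library in turn gave 125 to 145 calls for D12 against D0, 74 to 77 for D12 against D9 SSEA1+, 105 to 130 and 26 to 45 for D3 SSEA1+ and Thy1+ against D0, and 79 to 147, 68 to 107 and 47 to 51 between SSEA1+ and Thy1+ cells at D3, D6 and D9. It gave 17 to 21 and 18 to 24 for the steps within SSEA1+ cells and 52 to 110 for D9 against D3 Thy1+. For Ctcf shRNA the ranges were 0 to 24 at D0 (0 without the first D0_shLuci library and 24 without the first D0_shCTCF library), 1 to 4, 0 to 2 and 1 to 2 in D3 Thy1+, SSEA1+ and SSEA1-Thy1- cells, 3 to 4, 8 to 9 and 9 to 14 at D6, 7 to 15, 4 to 9 and 7 to 11 at D9 and 19 to 24 at D12. They were 31 to 43 for the mean, 27 to 44 for the F test, 11 to 22 and 10 to 20 for the D12 and D9 differences and 0 to 0 for both D10 comparisons. A group left with 1 library was assumed to vary like the others. Of 3276 refitted values for single named types, 187 came from the fit with no filter and could not differ. In all, 3141 kept direction and call, 135 lost the call and 0 reversed. The cause of these shifts was not tested. With depth unknown, low scores carry an error that cannot be given.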
